A study of Mus musculus with 6 samples.

Results

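Accessible chromatin around 10 cytokine and chemokine genes usually studied in stromal cells was examined in primary oviductal muscle cells. The genes were Il6, Il11, Lif, Il33, Ccl2, Ccl7, Cxcl1, Cxcl5 and Cxcl12, which encode secreted signals, and Il1rl1, which encodes a receptor. Members were all regions of the merged WT and Pbrm1 cKO peak lists that overlapped a gene body or the 20 kb on either side of it, on mouse assembly GRCm38 (mm10). There were 49 such regions among 66679 in all.

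The libraries came from female mice aged 8 to 12 weeks on day 2 of pregnancy, with 3 libraries labelled WT and 3 labelled Pbrm1 cKO. Per the study's methods, Pbrm1 cKO mice carried Pbrm1 fl/fl alleles and a Cre recombinase expressed from the progesterone receptor locus (PR-IRES-cre), and controls were Pbrm1 fl/fl littermates. Oviducts were digested and the cells were kept on dishes for 4 h and then for 2 h in fresh medium, so that both genotypes shared this brief culture, and 50000 cells entered each library. The study calls the 3 libraries of a genotype biological replicates, but how many animals gave a library is not given in the sources used here, so p-values measure the spread between these libraries. Peak lists hold no reads over the deleted part of Pbrm1, and the genotype was therefore taken from the labels.

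PBRM1 is a bromodomain subunit of the PBAF form of SWI/SNF, which uses ATP to slide or evict nucleosomes. ATAC-seq reads open chromatin through the insertion of adapters by the transposase Tn5. IL-6, IL-11 and LIF signal through the shared receptor chain gp130 and the factor STAT3, and LIF and IL-11 are known for their roles in implantation and decidualization. IL-33 is a nuclear alarmin whose receptor, ST2, is the product of Il1rl1. CCL2 and CCL7 draw monocytes through CCR2, CXCL1 and CXCL5 draw neutrophils through CXCR2, and CXCL12 binds CXCR4. Many of these genes are induced by NF-κB, AP-1 and C/EBP factors.

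Sequences of promoters and of regions on which the results turn are printed first, since they show which motif letters lay inside the windows that were measured. Promoter windows of 250 bases before a start were taken from RefSeq on GRCm38.p6, whose table held 7 of the 10 members, with Ccl2, Ccl7 and Cxcl5 not among them. The promoters shown are those of Il6, Cxcl1 and Il11, which had the highest rank scores of the members matched. Below are chr5:30012864-30013113 of Il6 (plus strand), chr5:90890995-90891244 of Cxcl1 (plus strand) and chr7:4778142-4778391 of Il11 (minus strand), each 5′ to 3′ up to the base before the start. Capitals mark matches on either strand to the κB letters (GGGA and TTCC with any 2 bases between them), the AP-1 letters TGANTCA or the C/EBP letters TTGCNNAA.
Il6 promoter: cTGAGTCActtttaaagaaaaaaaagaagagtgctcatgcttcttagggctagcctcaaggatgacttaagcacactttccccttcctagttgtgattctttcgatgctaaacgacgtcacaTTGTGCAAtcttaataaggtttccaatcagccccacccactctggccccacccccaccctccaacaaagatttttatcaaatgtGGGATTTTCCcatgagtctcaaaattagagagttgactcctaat
Cxcl1 promoter: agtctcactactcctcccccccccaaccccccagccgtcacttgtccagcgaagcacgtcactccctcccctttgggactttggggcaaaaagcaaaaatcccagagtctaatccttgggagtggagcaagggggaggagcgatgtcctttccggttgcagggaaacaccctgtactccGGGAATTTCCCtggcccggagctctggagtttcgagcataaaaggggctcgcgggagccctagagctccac
Il11 promoter: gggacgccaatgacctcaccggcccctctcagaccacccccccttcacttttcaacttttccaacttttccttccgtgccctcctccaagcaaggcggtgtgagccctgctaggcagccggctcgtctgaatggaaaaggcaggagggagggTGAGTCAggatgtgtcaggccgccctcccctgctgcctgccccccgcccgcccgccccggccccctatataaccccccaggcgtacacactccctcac

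Counted back from the start, with -1 as the base before it, the Il6 window held AP-1 letters at -249, C/EBP letters at -128 and κB letters at -44. Cxcl1 held κB letters read on both strands at -71 and -70, which overlap. Il11 held AP-1 letters at -98. Among the 10 promoter windows that RefSeq gave for the 7 matched members, κB letters occurred in 2 (Cxcl1 and Il6), against 1.21% of 32841 promoters in the table. AP-1 letters occurred in 3 (Il11, Il6 and Lif), against 6.75%, and C/EBP letters in 3 (Il1rl1, Il33 and Il6), against 9.57%. The TATA letters TATAAA occurred in 2 windows, both of Il33, against 12.4%, and the cyclic AMP response element TGACGTCA in 0, against 1.55%. A match is a description of letters and not a site shown to be bound.

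A pair of distal regions is printed as well. The intronic Il33 region at chr19:29930357-29930629 (plus strand) had the smallest p of any distal member region. The 300 bases around the summit of the intronic Il1rl1 region at chr1:40444807-40445106 (plus strand) were chosen after the values were seen, because this region had the highest rank score of the members' distal regions. C/EBP letters begin at base 129 of the first and AP-1 letters at base 15 of the other, both in capitals.
Il33 intronic region: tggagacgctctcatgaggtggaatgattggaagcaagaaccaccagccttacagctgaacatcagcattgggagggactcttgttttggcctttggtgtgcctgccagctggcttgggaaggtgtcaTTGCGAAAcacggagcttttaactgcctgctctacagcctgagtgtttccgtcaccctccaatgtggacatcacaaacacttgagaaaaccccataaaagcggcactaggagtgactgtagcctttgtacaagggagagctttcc
Il1rl1 intronic region: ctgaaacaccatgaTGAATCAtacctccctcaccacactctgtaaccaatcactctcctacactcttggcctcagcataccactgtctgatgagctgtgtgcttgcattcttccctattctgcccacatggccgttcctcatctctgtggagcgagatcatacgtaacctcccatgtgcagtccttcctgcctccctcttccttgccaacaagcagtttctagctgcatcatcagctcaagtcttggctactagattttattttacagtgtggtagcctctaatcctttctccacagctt

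In 300 bases around each summit, AP-1 letters lay in 16 of the 31 distal member regions (51.6%), close to the 47.0% of 45120 distal regions scanned. Cxcl1 held 6 of these 16 among its 8 distal regions. C/EBP letters lay in 10 of 31 (32.3%), against 16.0% of all distal regions. κB letters lay in 2 of 31 (6.45%), against 1.68%, namely 34.4 kb downstream of the first start of Lif and 2.5 kb upstream of that of Ccl2.

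Levels are given as ranks. Each region took, in each library, the best −log10 p that any overlapping entry had in that library's own list, and was ranked among all 66679 regions, so that a small rank number means strong accessibility. A rank score, log2(number of regions / rank), was used for tests, and a difference of 1 means that the rank number halved. A region with no entry had the lowest rank. Absence of an entry places a region below the threshold of the list and does not show that it was closed. The deposited fold and −log10 p of each summit also gave the number of tags over it, which came out whole within 0.02 for all 292 entries at member regions. The median over these entries was 29, 29 and 15 tags in WT libraries 1, 2 and 3 and 34, 31 and 28 in Pbrm1 cKO libraries 1, 2 and 3. WT library 3 had the fewest tags at 43 of the 49 regions, although its list held the most distinct intervals of the 6 (241237). Tags are not scaled to depth and are printed to show how many reads stand behind a rank.

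Of the 49 regions, 12 lay within 1 kb of a transcription start of a member and are called member promoters, 6 lay at promoters of other genes, and 31 were distal. Both genotypes' lists held 38 of them. The WT list alone held 7 (14.3%, against 13.4% of all regions) and the Pbrm1 cKO list alone held 4 (8.16%, against 17.4%). The 4 member promoters among the WT-only regions belonged to Cxcl5 (2 regions), Cxcl12 and Il1rl1, whereas all 4 of the Pbrm1 cKO-only regions were distal, 2 around Cxcl1 and 1 each near Il11 and Ccl2. Each genotype has a single list of this kind, so the counts have no replicate error. Of the 11 member regions held by 1 list, 9 still had an entry in all 6 libraries. Over all 49 the share was 95.9%, against 93.5% of all merged regions. A region that entered through 1 genotype's list alone was chosen for being strong in that genotype, so its difference is partly set by that choice. Among the 8908 regions listed in WT alone across the genome, 88.5% had a lower mean in Pbrm1 cKO, 37.2% were lower without overlap of the groups and 8.21% were called lower on normal scores.

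**Figure D1:**
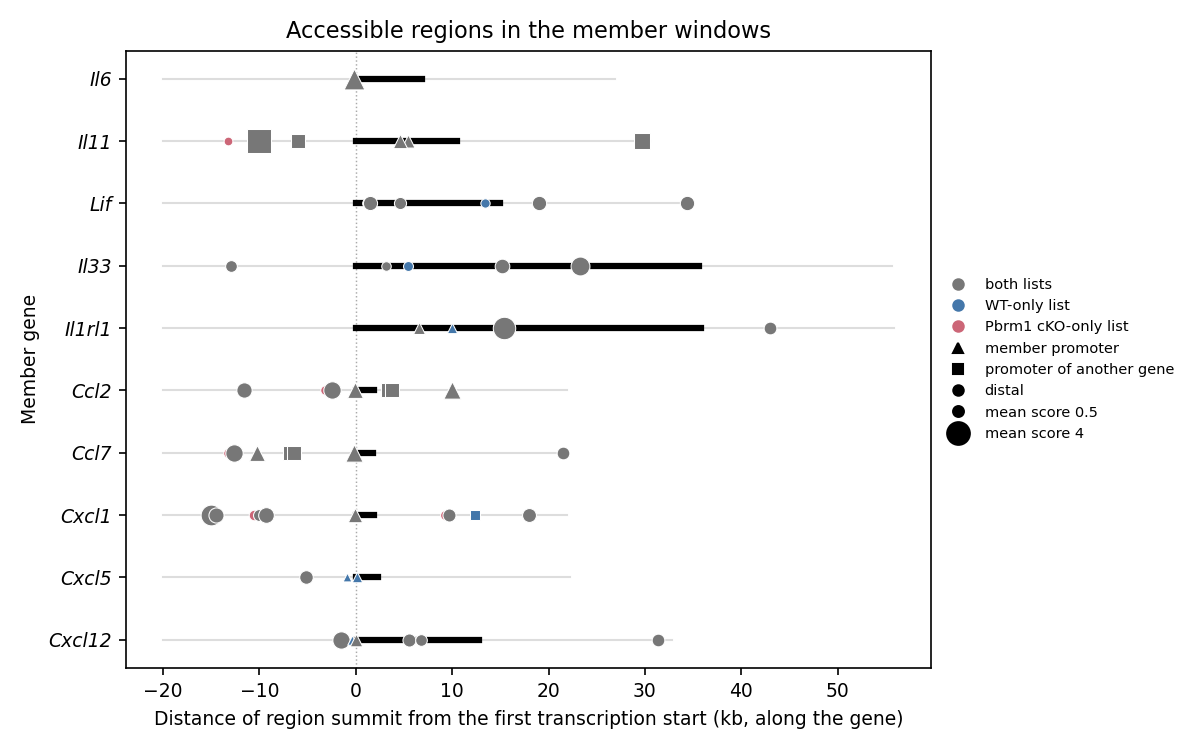
Position of each accessible region in the 10 member windows, in kb from the first transcription start along the gene (black bar, gene body; grey line, window). Symbol area grows with the mean rank score over 6 libraries, colour gives the genotype list that held the region and shape its class. Il6 has 1 region, at its start, and Cxcl1 has 10, while Il11, Lif, Il33 and Il1rl1 have none at their first start.

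Cxcl1 had the densest window, with 10 regions or 2.39 per 10 kb, followed by Ccl7 and Ccl2 with 7 each. The Ccl2 and Ccl7 genes are neighbours and shared 6 of the 8 regions in their joined windows. Il11, Lif and Cxcl12 had 6 regions each, Il33 5, Il1rl1 4, Cxcl5 3 and Il6 1 (0.213 per 10 kb). The median protein-coding gene had 3 regions, or 0.449 per 10 kb. A member promoter region existed for 8 of the 10 genes, all but Lif and Il33, against 62.7% of protein-coding genes. The promoters of members were of modest strength, with a median rank score of 0.92, against 1.88 over 21555 regions at promoters of any gene, while the median of member distal regions was 0.97, against 0.77 over 45124 distal regions.

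Il6 had the most accessible promoter of the members and its mean level was alike in both genotypes. The single Il6 region (chr5:30012724-30013629, summit 192 bp before the start) ranked 5480, 6468 and 8567 in WT libraries 1, 2 and 3 and 5453.5, 6558 and 8435.5 in Pbrm1 cKO libraries 1, 2 and 3. The groups interleaved almost rank by rank. Its rank score was 3.31 ± 0.33 (SD, n = 3) in WT and 3.31 ± 0.32 (n = 3) in Pbrm1 cKO, a difference of 0.00 with a standard error of 0.38 (limma, adjusted p = 0.998). Summit tags were 77, 62 and 35 in WT and 89, 69 and 65 in Pbrm1 cKO. This region holds all 3 sets of motif letters printed above for Il6. No other region was called within 20 kb of Il6.

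Il11 showed no region at its first annotated start, where 1 library, WT library 2, had an entry. Its promoter regions lay at internal starts. The region 140 bp before an internal start (chr7:4778078-4778541, over the Il11 promoter printed above) ranked 23170, 36146 and 33792 in WT and 23611.5, 24066.5 and 29626.5 in Pbrm1 cKO, with overlapping groups and a difference of 0.25 (SE 0.32, limma, adjusted p = 0.757).

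A neighbouring Il11 region in an intron, with its summit 707 bp past the nearest start (chr7:4776731-4777598), ranked 37979, 16224 and 31037.5 in WT and 37476, 40669 and 51119 in Pbrm1 cKO. WT library 2 stood above the others here, and the Pbrm1 cKO ranks began just above the weakest WT rank. The difference was -0.68 (SE 0.34, limma, adjusted p = 0.335), and without WT library 2 it was -0.31 (limma, adjusted p = 0.65). The distal Il11 region listed in Pbrm1 cKO alone, 13.3 kb upstream in an intron of Ube2s, was weak everywhere. It ranked 59377 and 63657 in WT libraries 1 and 2, had no entry in WT library 3, and ranked 60968, 49206 and 63771 in Pbrm1 cKO. Its difference was 0.13 (SE 0.12, limma, adjusted p = 0.629). The other 3 regions of the Il11 window were promoters of Cox6b2, Tmem238 and Rpl28, with differences of -0.34, -0.28 and -0.28.

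Lif, whose product is required in the mouse uterus for implantation, had no promoter region. At its first start 1 library, Pbrm1 cKO library 2, held an entry, of 10 tags. All 6 regions of the Lif window were distal. The strongest by mean rank score lay 19.1 kb past the first start in an intron of Gm11959 and ranked 17163.5, 20426.5 and 44464 in WT and 41307.5, 24171.5 and 26826 in Pbrm1 cKO, with overlapping groups and a difference of -0.26 (SE 0.38, limma, adjusted p = 0.792).

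A short intronic Lif region 1.2 kb past the start (chr11:4258667-4258807) ranked 59174.5, 57699.5 and 58795 in WT and 55152.5, 53300.5 and 44773 in Pbrm1 cKO. Every Pbrm1 cKO library ranked it above every WT library, although it ranked past 50000 in 5 of 6 libraries. The difference was 0.20 (SE 0.14, limma, adjusted p = 0.507). The Lif region listed in WT alone, at 13.4 kb over an annotated untranslated exon, ranked 53131, 55838 and 54380 in WT and 63390, 54949 and 59850 in Pbrm1 cKO, so that the groups overlapped and differed by -0.12 (SE 0.12, limma, adjusted p = 0.675).

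Il33 also lacked a promoter region in the merged lists, but 5 libraries, all but Pbrm1 cKO library 2, had a weak entry of 9 to 17 tags over its first start. Its 5 regions were distal, and the strongest was intronic, 23.3 kb past the first start. That region ranked 9728, 7597 and 16656.5 in WT and 10543.5, 12932.5 and 9343 in Pbrm1 cKO. The groups overlapped, with a difference of -0.02 (SE 0.37, limma, adjusted p = 0.99).

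The intronic Il33 region printed above, 5.4 kb past the first start, was listed in WT alone and was lower in every Pbrm1 cKO library than in any WT library. It ranked 44065.5, 50748 and 37713.5 in WT and 64450.5, 62751 and 63707.5 in Pbrm1 cKO. Summit tags were 22, 16 and 13 in WT and 11, 11 and 9 in Pbrm1 cKO, so that WT library 3 still held more than any Pbrm1 cKO library. The rank score was 0.61 ± 0.21 (SD, n = 3) in WT and 0.07 ± 0.02 (n = 3) in Pbrm1 cKO, a difference of -0.54 (SE 0.16). The difference did not pass the threshold (limma, unadjusted p = 0.00271, adjusted p = 0.121). Since the Il33 region is a member only through the WT list, this difference is not independent of how it was chosen.

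Il1rl1, which encodes the IL-33 receptor ST2, had no entry at its first start in any library. Its promoter regions lay at starts inside the gene. The region 6.6 kb past the first start ranked 26791, 42357.5 and 49943 in WT and 30611.5, 46186 and 53489.5 in Pbrm1 cKO, a difference of -0.14 (SE 0.29, limma, adjusted p = 0.868). At 10.0 kb past the first start, a region 38 bp before an internal start and listed in WT alone ranked 58334, 47168 and 53936.5 in WT and 56121.5, 40677 and 50050.5 in Pbrm1 cKO, a difference of 0.13 (SE 0.18, limma, adjusted p = 0.783).

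The intron of Il1rl1 held the most accessible region of any member that was not a promoter of another gene. The region 15.4 kb past the first start (chr1:40444657-40445253) ranked 3684, 4529 and 5979.5 in WT and 4370, 4400.5 and 3606 in Pbrm1 cKO. All 6 libraries thus placed it ahead of the Il6 promoter, WT library 3 included. Its rank score was 3.85 ± 0.35 (SD, n = 3) in WT and 4.02 ± 0.16 (n = 3) in Pbrm1 cKO, and the groups overlapped (difference 0.17, SE 0.41, limma, adjusted p = 0.881).

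Ccl2 and Ccl7, the monocyte chemoattractants, came next to Il6 in promoter level. The Ccl7 promoter (summit 155 bp before the start) ranked 23675, 14800.5 and 13145.5 in WT and 11552, 19294 and 13404.5 in Pbrm1 cKO, a difference of 0.21 (SE 0.35, limma, adjusted p = 0.83). The Ccl2 promoter (summit 104 bp before the start) ranked 18991, 14543 and 34594 in WT and 16001, 25601 and 20223 in Pbrm1 cKO, a difference of 0.07 (SE 0.37, limma, adjusted p = 0.953). Both sets of groups overlapped, and WT library 3, with the fewest tags, had the weakest Ccl2 rank.

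Upstream of Ccl2, the strongest distal region of the pair lay 2.5 kb before the Ccl2 start in an intron of Gm17268 and is the one with κB letters. It ranked 19684, 8968.5 and 17403.5 in WT and 11477, 16561 and 20259 in Pbrm1 cKO, a difference of -0.11 (SE 0.37, limma, adjusted p = 0.923). A weak region 3.2 kb before Ccl2 was listed in Pbrm1 cKO alone. It ranked 60784, 57573 and 53193.5 in WT and 52561, 48487 and 60535 in Pbrm1 cKO, with overlapping groups (difference 0.09, SE 0.14, limma, adjusted p = 0.804). Of the regions between both genes, 1 of the 2 at starts of Gm17268 had the largest difference of the Ccl2 window, 0.40 (SE 0.34, limma, adjusted p = 0.606). Without Pbrm1 cKO library 1 it was 0.10 (limma, adjusted p = 0.938).

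Cxcl1 had a promoter that every Pbrm1 cKO library ranked above every WT library. The region (summit 91 bp before the start, over the κB letters printed above) ranked 28463, 39768 and 30394.5 in WT and 20691, 27905.5 and 19328.5 in Pbrm1 cKO. Summit tags were 27, 20 and 14 in WT and 42, 30 and 40 in Pbrm1 cKO. The gap between the closest libraries of the 2 groups was small, since Pbrm1 cKO library 2 lay just ahead of WT library 1. The rank score was 1.04 ± 0.26 (SD, n = 3) in WT and 1.58 ± 0.28 (n = 3) in Pbrm1 cKO, a difference of 0.54 (SE 0.32) that did not pass the threshold (limma, unadjusted p = 0.107, adjusted p = 0.426).

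The strongest distal Cxcl1 region, 15.0 kb upstream, ranked 8589, 4348 and 5570.5 in WT and 10116, 4997 and 9543 in Pbrm1 cKO. Its groups overlapped and its difference had the opposite sign to that of the promoter, -0.40 (SE 0.41, limma, adjusted p = 0.681). The 2 distal Cxcl1 regions listed in Pbrm1 cKO alone differed by -0.17 (SE 0.21) and 0.16 (SE 0.15), with adjusted p of 0.744 and 0.651 by limma. The promoter of Cxcl2, a neutrophil chemoattractant gene in the Cxcl1 window, was listed in WT alone and ranked between 55026.5 and 63687 in the 6 libraries.

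Cxcl5, the other neutrophil chemoattractant gene, carried the lowest single difference of the set, and all 3 of its regions had a lower mean in Pbrm1 cKO. The region over its start and first coding exon (chr5:90759332-90759743, summit 93 bp past the first start) was listed in WT alone. It ranked 53584.5, 36930 and 25495.5 in WT and 66077, 65988.5 and 65581.5 in Pbrm1 cKO, near the lowest possible rank. Summit tags were 18, 23 and 18 in WT and 7, 6 and 8 in Pbrm1 cKO. The groups did not overlap, and the WT libraries were spread widely, with the best rank in WT library 3.

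The Cxcl5 start region had a rank score of 0.85 ± 0.54 (SD, n = 3) in WT and 0.02 ± 0.01 (n = 3) in Pbrm1 cKO. Its difference of -0.83 (SE 0.22) was the largest of the 49 and did not pass the threshold (limma, unadjusted p = 0.0014, adjusted p = 0.104). Since the score ends at 0, a fall from the WT mean could not exceed 0.85. Normal scores of the ranks stretch the weak end, where the Pbrm1 cKO ranks of this region rest on 7, 6 and 8 tags. On that scale the difference was -2.04 (SE 0.39, limma, adjusted p = 0.00646). This was the only member region called by that fit, and without Pbrm1 cKO library 1 its adjusted p was 0.064 by limma on normal scores. Without WT library 3 the normal score difference was -1.78 (limma, adjusted p = 0.0108). The Cxcl5 start region entered the merged set through the WT list alone, which partly fixes its direction, and the call is therefore a description and not independent evidence of a fall.

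A further Cxcl5 region, 947 bp before the start and also listed in WT alone, ranked 50014.5 and 55426.5 in WT libraries 1 and 2 and had no entry in WT library 3. It ranked 65057, 66008.5 and 57713.5 in Pbrm1 cKO, a difference of -0.14 (SE 0.12, limma, adjusted p = 0.62). The distal Cxcl5 region 5.1 kb upstream was shared, ranked 31533, 25464 and 30352.5 in WT and 37258, 43487 and 23567 in Pbrm1 cKO, and differed by -0.22 (SE 0.32, limma, adjusted p = 0.797). Its groups overlapped, and Pbrm1 cKO library 3 had the best rank of the 6.

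**Figure D2:**
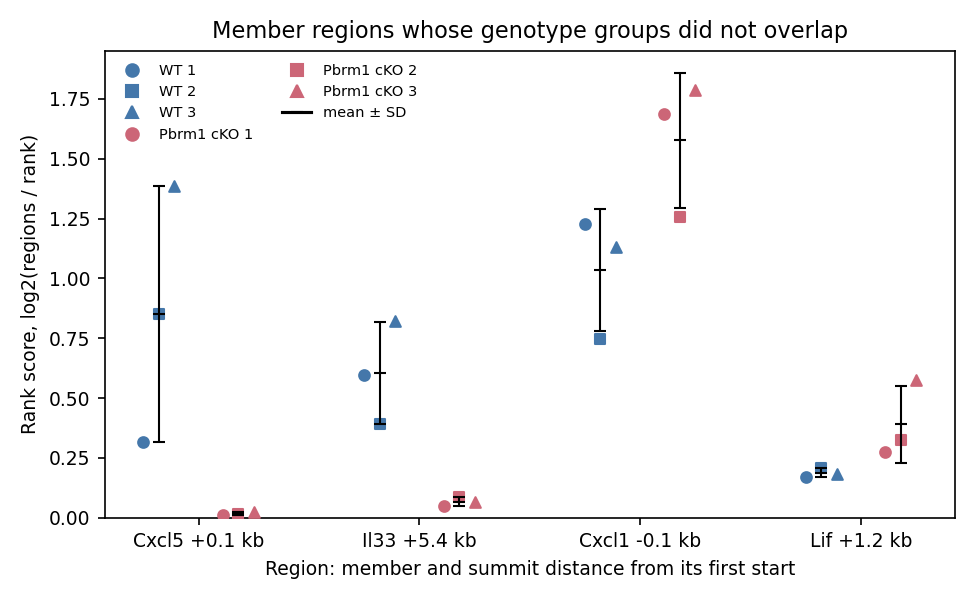
Rank score, log2(regions / rank), in each library at the 4 member regions whose genotype groups did not overlap, ordered by p (points, libraries; bars, mean ± SD, n = 3 per genotype). The Cxcl5 and Il33 regions sit near 0 in all Pbrm1 cKO libraries, and the Cxcl1 and Lif regions are higher in Pbrm1 cKO by 0.54 and 0.20.

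Cxcl12, a chemokine of stromal and perivascular cells, had a start region that ranked 49402, 36029 and 20161 in WT and 47255, 34617 and 40600 in Pbrm1 cKO. Replicates of WT spanned the whole range of the Pbrm1 cKO libraries, and the difference was -0.30 (SE 0.33, limma, adjusted p = 0.709). A narrow region 412 bp before the Cxcl12 start, listed in WT alone, ranked 58023, 44434.5 and 61206 in WT and 57933.5, 61674.5 and 52586 in Pbrm1 cKO, a difference of -0.08 (SE 0.15, limma, adjusted p = 0.834).

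More accessible than either was a Cxcl12 region 1.5 kb before the start. It ranked 11866.5, 15048.5 and 24698 in WT and 12334, 15647.5 and 15548.5 in Pbrm1 cKO, with a difference of 0.19 (SE 0.35, limma, adjusted p = 0.85). Its groups overlapped. The Cxcl12 region 6.8 kb past the start, in an exon, had the highest difference of that window, 0.28 (SE 0.25, limma, adjusted p = 0.633).

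**Figure D3:**
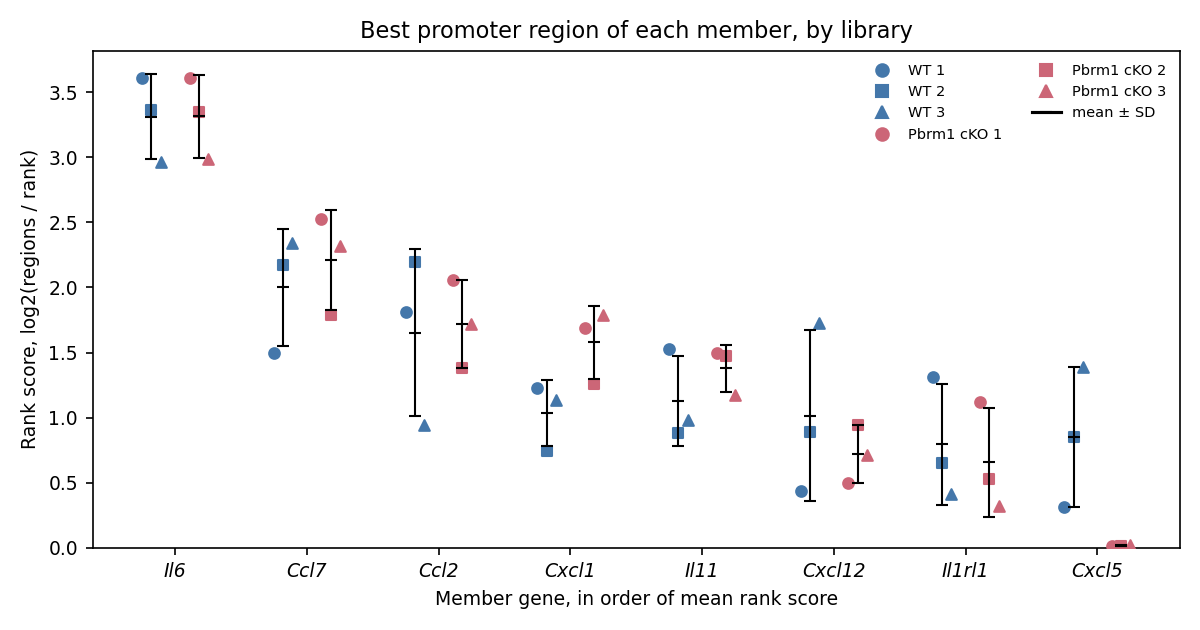
Rank score of the best promoter region of the 8 members that had one, by library (points; bars, mean ± SD, n = 3 per genotype), in order of the mean over all 6 libraries. Il6 stands above the rest at 3.31, and Cxcl5 is lowest at 0.43, with its Pbrm1 cKO libraries near 0.

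The order of the best promoter regions by mean rank score over the 6 libraries was Il6 (3.31), Ccl7 (2.11), Ccl2 (1.69), Cxcl1 (1.31), Il11 (1.25), Cxcl12 (0.87), Il1rl1 (0.73) and Cxcl5 (0.43). Only Il6 was separated from its neighbour in this order: its weakest rank among the 6 libraries, 8567, was ahead of the strongest Ccl7 rank, 11552. The ranges of all other neighbours overlapped. These ranks place a promoter among the regions of its library and measure accessibility, not transcription.

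Between genotypes, no member region passed the threshold. Of the 49 regions 0 were called higher in Pbrm1 cKO (0.039% of all regions were) and 0 were called lower (0.03% of all) by limma on the rank score at an adjusted p of 0.05. At an unadjusted p under 0.05 there were 2 regions, at Cxcl5 and Il33 and both listed in WT alone, or 4.08%, against 15.9% of all regions. On normal scores 0 were called higher (0.993% of all) and 1, at Cxcl5, was called lower (1.33% of all). The groups did not overlap at 4 regions (8.16%, against 21.4% of all), of which 2 were lower in Pbrm1 cKO (Cxcl5 and Il33; 10.8% of all) and 2 higher (Cxcl1 and Lif; 10.6% of all). The members' share was below that of all regions at an unadjusted p under 0.05 and in the count without overlap, which rest on 2 and 4 member regions. Their median absolute difference was 0.19, against 0.26 over all regions.

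Differences at member regions had no common direction. The mean was higher in Pbrm1 cKO at 23 and lower at 26, with a median difference of -0.03, against 0.00 over all regions. At 39 of the 49 regions the difference was smaller than its own standard error. At the 12 member promoters the median difference was -0.04 and at the 31 distal regions 0.05. Within a genotype the median SD of the rank score was 0.37 in WT and 0.24 in Pbrm1 cKO. Small differences were not detectable at this spread.

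**Figure D4:**
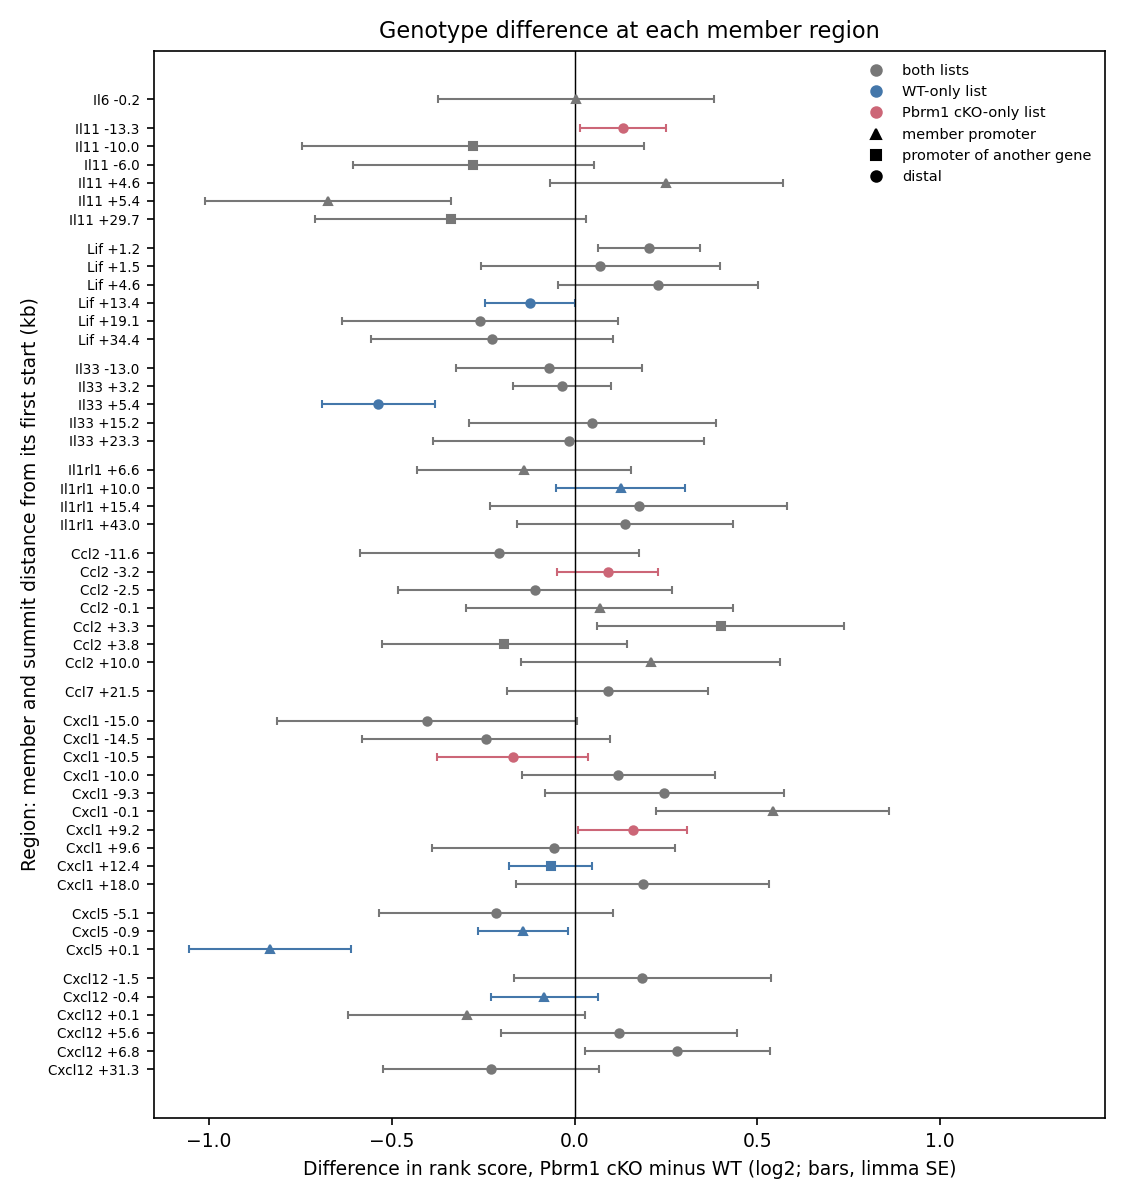
Difference in rank score, Pbrm1 cKO minus WT (log2), at each of the 49 member regions, labelled by gene and by the distance of the summit from its first start in kb (points, limma estimate; bars, limma SE). Differences run from -0.83 at the Cxcl5 start to 0.54 at the Cxcl1 promoter, and 39 bars cross 0 (the Ccl7 promoter is drawn as Ccl2 +10.0).

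All entries of the relaxed lists, called or not in the merged lists, were also counted in each window. The number of distinct intervals in the Cxcl5 window was 11, 9 and 9 in WT and 11, 12 and 10 in Pbrm1 cKO. In the Il11 window it was 13, 13 and 15 in WT and 15, 17 and 21 in Pbrm1 cKO, the largest difference of the 10 genes, 4.00 (exact two-sided permutation p = 0.2). For Cxcl12 it was 16, 13 and 14 in WT and 10, 13 and 13 in Pbrm1 cKO (exact two-sided permutation p = 0.3). Overlaps between the groups occurred in all 10 windows. The smallest p that 3 libraries against 3 allow is 0.1, and all 10 p-values were 1 after Benjamini-Hochberg adjustment.

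The cell type named in the labels was checked against marker promoters. Each summed rank score below grows with its number of regions, so sums of different cell types cannot be compared. There were 7 smooth muscle, 7 fibroblast, 4 endothelial, 3 leukocyte, 2 pericyte and 1 epithelial regions. The strongest region by mean rank score was 1.81 for smooth muscle (Acta2), 1.79 for endothelium (Kdr) and 4.02 for epithelium (Foxj1). For leukocytes it was 1.61 (Cd68), for fibroblasts 1.54 (Col1a1) and for pericytes 1.12 (Kcnj8). These levels do not set smooth muscle apart from the other cell types. All 5 smooth muscle markers (Acta2, Myh11, Cnn1, Tagln and Des) had a promoter region, with a summed rank score of 7.44 to 9.66 in WT and 7.47 to 8.64 in Pbrm1 cKO. Of the fibroblast markers 3 of 4 did (not Lum), and this sum was 3.44 to 5.35 in WT and 5.96 to 7.36 in Pbrm1 cKO. All 7 fibroblast marker regions had a higher mean in Pbrm1 cKO (median 0.29), and 0 were called. An unadjusted p under 0.05 occurred at 2, at Pdgfra and Dcn, against 15.9% of all regions. Both were listed in Pbrm1 cKO alone, as was a further Pdgfra region, which partly fixes their direction. Of the 11619 regions listed in Pbrm1 cKO alone, 80.2% had a higher mean there. The same marker regions enter the fibroblast sum. The part of these marker differences in the results on Cxcl5, Il33, Cxcl1 and Lif was not tested. In bulk libraries, fewer cells of a type and less accessibility per cell cannot be told apart.

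Of the leukocyte markers, 2 of 5 had a promoter region (not Ptprc, Adgre1 or Spi1), with sums of 2.37 to 3.90 in WT and 2.95 to 3.07 in Pbrm1 cKO. All 4 endothelial markers did (3.85 to 5.81 and 3.40 to 5.30), as did 2 of 3 pericyte markers (not Rgs5; 1.33 to 2.35 and 0.85 to 1.58). Foxj1 alone did among 5 epithelial markers (3.58 to 4.13 and 3.20 to 4.62). The leukocyte, endothelial, pericyte and epithelial sums overlapped between genotypes. Both pericyte regions had a lower mean in Pbrm1 cKO (median -0.40), and 0 were called. The Kcnj8 region, held by both lists, differed by -0.72 (SE 0.31, limma, unadjusted p = 0.0302, adjusted p = 0.261). Its groups did not overlap, as at 21.4% of all regions. The part of this difference in the results on member regions was not tested.

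Other genes of the same pathways were read in the same fit. Of 26 further ligand genes, 13 had a promoter region, and those without one included Il1a, Il1b, Tnf, Osm, Ccl5 and Csf2. Among their 15 promoter regions 0 were called in either direction. An unadjusted p under 0.05 occurred at 3, against 15.9% of all regions. These 3 were lower in Pbrm1 cKO at Ctf1 (-0.69) and Il18 (-0.44) and higher at Cxcl16 (0.74). The mean was higher in Pbrm1 cKO at 4 and lower at 11. Among the lower ones, the Cxcl2 and Il18 regions were listed in WT alone. Over all 15 ligand regions the median difference was -0.25. The smallest p of this group was at an Il18 region listed in WT alone, which ranked 31621, 53013 and 62319 in WT and 65347, 65865.5 and 61135.5 in Pbrm1 cKO, with overlapping groups (difference -0.44, SE 0.19, limma, adjusted p = 0.265). The highest level of these ligands was that of Cxcl10, an interferon-induced chemokine gene, with a mean rank score of 3.04 and a difference of -0.09 (SE 0.42, limma, adjusted p = 0.944).

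Receptor genes of the pathways had promoter regions in 10 of 14 cases, the exceptions being Ccr2, Cxcr1, Cxcr2 and Ackr1, which encode receptors or a scavenger for the chemokines above. Of 13 receptor regions the mean was higher in Pbrm1 cKO at 4 and lower at 9, with a median difference of -0.10. Among these 13 regions 0 were called and 1 had an unadjusted p under 0.05 (15.9% of all regions did). It was at Il6st, which encodes gp130, the chain shared by IL-6, IL-11 and LIF, and it was also the strongest receptor promoter. The Il6st region ranked 5391, 4671 and 3977 in WT and 1175, 1118 and 2021 in Pbrm1 cKO, so that the groups did not overlap. Its difference was 1.75 (SE 0.47) and did not pass the threshold (limma, unadjusted p = 0.00163, adjusted p = 0.108, and on normal scores adjusted p = 0.0741).

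Signal relay and feedback genes all had promoter regions, in 16 of 16 cases. Of their 28 regions 0 were called and 4 had an unadjusted p under 0.05 (15.9% of all regions did). The mean was higher in Pbrm1 cKO at 14 and lower at 14. Tnfaip3 encodes A20, an inhibitor of NF-κB signalling that is itself induced by NF-κB. Its stronger promoter region ranked 3179, 2639 and 2777 in WT and 777, 1024.5 and 941 in Pbrm1 cKO, the highest level of the group (difference 1.65, SE 0.52, limma, adjusted p = 0.146). Tyk2, a Janus kinase gene, ranked 4407, 6258 and 5882 in WT and 1238, 4344 and 2779 in Pbrm1 cKO (difference 1.15, SE 0.48, limma, adjusted p = 0.258). At Tnfaip3 and Tyk2 the groups did not overlap, as at 21.4% of all regions.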

How the data were processed

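The members and gene lists were chosen with earlier results of these data known. Per the study's methods, the authors ran the ENCODE ATAC-seq pipeline 1.9.0 on GRCm38 and called peaks with MACS2 from paired-end reads. They deposited a relaxed list per library (p of 0.01, at most 300000 entries) and 1 conservative list per genotype at an irreproducible discovery rate of 0.05, whose replicates are not given in the sources used here. Each deposited entry carries a score, a fold enrichment over local background (a ratio) and a −log10 p, the peak caller's values within 1 list. Relaxed entries also hold a −log10 q. Total reads per library are unknown here, and distinct intervals numbered 201228 to 241237 per library.

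The conservative lists were merged by overlap of at least 1 bp. Genes and starts came from GENCODE M21. The study counted reads in peaks, but the deposited lists hold none, so ranks took their place: limma 3.58.1 in R 4.3.3 (lmFit, eBayes with a trend) was fitted to the rank scores of all 66679 regions, with genotype as the only term and Benjamini-Hochberg adjustment over all of them. Ranks cannot show a change common to every region of a library. Intervals per window were compared by exact two-sided permutation tests, 3 libraries against 3. Cell type and pathway lists were read from the same fit, within 1 kb of a start. Regions named were all member promoters, the strongest distal region of each member, the 10 with the smallest p, up to 5 listed in each genotype alone and, of other pathway genes, the 5 smallest p and the strongest of each role, of which 1 is not reported here. No pairing by replicate number is stated in the sources used here. Deviations of same-numbered libraries correlated at -0.00283, -0.0548 and 0.00933, which cannot settle whether libraries were paired. Alternatives were another rank scale, ranking by fold, filters, a replicate block, leaving out libraries, window sizes and stricter lists.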

Additional observations from a re-analysis of the deposited data

How the results depend on the processing

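Of the alternatives to the rank comparison, normal scores changed the calls: they gave 1 region lower in Pbrm1 cKO, the Cxcl5 start (difference -2.04), in place of 0, over all regions 662 higher and 890 lower in place of 26 and 20. Leaving out each library under normal scores, which was chosen after seeing the data, gave 0 to 1 lower, with 0 without Pbrm1 cKO library 1. With the replicate block 0 member regions were called higher and 0 lower, and over all regions 66 and 64. The replicate numbers mark no stated pairing, and the block changed no call of a member region. Over all regions the counts were 6 and 1 when ranked by fold, 14 and 6 among regions with entries in all 6 libraries, 10 and 6 in the stronger 50% by mean score, and 2 to 6 higher and 0 to 19 lower with 1 library left out. The cause was not tested.

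The alternatives were followed one by one at 18 member regions, of which 7 turned direction at least once, each with an adjusted p of 0.709 or more in the reported fit. Of the other 31, 21 turned at least once, and none was below an adjusted p of 0.356 under any of these, normal scores with a library left out not included. Ranked by fold, the Il6 promoter differed by -0.23 and the Ccl2 promoter by -0.0544. With 1 library left out, the difference ran from -0.17 to 0.17 at the Il6 promoter, -0.37 to 0.12 and -0.0015 to 0.23 at the Il1rl1 promoters, -0.28 to 0.34 at Ccl2, -0.0462 to 0.42 at Ccl7, and -0.17 to 0.0572 and -0.59 to 0.0591 at Cxcl12. Where the groups did not overlap, leaving out 1 library cannot turn the sign. There the difference ran from -1.10 to -0.57 at the Cxcl5 start, -0.64 to -0.43 at Il33, 0.40 to 0.70 at Cxcl1 and 0.11 to 0.26 at Lif. The sign also held at some regions with overlapping groups, among them the Il11 promoters (-0.93 to -0.31 and 0.13 to 0.45).

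Windows of 5 kb around the gene bodies held 29 regions in all, 22 shared and 1 listed in Pbrm1 cKO alone, and windows of 50 kb held 75, 59 shared and 11 in WT alone. The stronger 50% of each list left 3 in WT alone and 2 in Pbrm1 cKO alone, and a limit of 3 kb gave 19 member promoters. Interval counts turned with the 100000 best-ranked intervals at Il11, Lif and Cxcl5 (-0.333 each), Il33 (0.333) and Il1rl1 (0.667), with 5 kb at Lif and Cxcl5 (-0.333 each) and Cxcl12 (0.667), and with 50 kb at Ccl7 (2.33). With 1 library left out they ran from -0.833 to 1.67 at Lif, -2.33 to 0.167 at Il33 and -0.5 to 2.00 at Ccl2. The ranks of WT library 3 rest on a median of 15 tags per member entry, and total reads per library are unknown.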
